A study of Mus musculus with 2 samples.

Results

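Of 7332 cells in the libraries of a Cxcl12-GFP+ sort from mouse femurs, 933 were reticular cells in which 3 immediate early genes were low. The 7332 were all cells past the filter. Among them 386 counted as Ptprc-positive, with at least 2 UMIs of the leukocyte gene Ptprc. These also had at most 1 UMI of the endothelial gene Cdh5 and under 10 UMIs of Adipoq, Lpl and Hp together per 10000. Another 285 counted as Cdh5-positive, with at least 2 UMIs of Cdh5 and at most 1 of Ptprc. The 933 members were 334 in Mouse #1 and 599 in Mouse #2. A reticular cell here had at least 10 UMIs of Adipoq, Lpl and Hp together per 10000, more than of the osteoblast-lineage genes Alpl, Wif1, Kcnk2 and Spp1, and at most 1 UMI each of Ptprc and Cdh5. A UMI is a molecular tag by which each captured transcript is counted once. Of the 4386 reticular cells, the members were those at or below the 25th percentile of Fos, Jun and Egr1 per 10000 UMIs within their own library, with fewer than 2 UMIs of Cxcl9. The same limit on Cxcl9 was set on the second, the third and the highest quartiles, which held 912, 916 and 885 cells. The members were thus selected on measured counts of those 3 genes.

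Both mice belonged to 1 group, so no animals were compared and every comparison was between cells of the same mice. Their genotype was Cxcl12(GFP/+); Cxcl12-iCreER; R26R(tdTomato/+), they received tamoxifen at postnatal day 21, and their femurs were taken at day 28. All cells therefore carried 1 Cxcl12 allele with GFP, an inducible recombinase from a bacterial artificial chromosome that holds Cxcl12 regulatory sequence, and a tdTomato reporter that marks cells in which it acted and their descendants. The recombinase came from a single transgenic line on a mixed background, and the distal growth plates had been cut away. The labels disagree on the sort, with 1 field naming tdTomato+ and the others GFP+ cells, and GFP+ was taken as the sort. The bones were digested with warm enzymes before sorting.

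Reticular cells of the marrow wrap sinusoids with long processes and supply the niche of blood stem cells. They are known for CXCL12, which holds blood stem and progenitor cells in the marrow, for KITL (stem cell factor), for the leptin receptor and for adipocyte genes such as Adipoq (adiponectin) and Lpl (lipoprotein lipase). Immediate early genes are switched on within minutes of a stimulus from factors already present in the cell. FOS and JUN pair to form the transcription factor AP-1, and EGR1 is a zinc-finger factor of the same early wave. They are known to answer growth factors, stretch, heat and the enzymatic dissociation of tissue, and heat shock proteins are chaperones that answer heat and misfolded protein.

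The libraries held 54940400 UMIs in Mouse #1 and 88790688 in Mouse #2, and 2750 and 4582 barcodes passed the limits for cells, 1000 or more genes with no more than 15% of UMIs from mitochondria. Both libraries kept 7 identical barcodes as cells (0.255% and 0.153% of cells), where 1.85 would be shared if barcodes were drawn independently. The members had median depths of 11802 and 10814 UMIs, against 12138 to 13142 in the other quartiles of Mouse #1 and 11106 to 11518 in those of Mouse #2. Their median mitochondrial shares were 3.6% and 3.89%, inside the ranges of the other quartiles (3.54 to 3.87% and 3.54 to 4.13%). The rule also admitted a small number of cells with many transcripts of blood cells, described below, and results that rest on them are given with and without them.

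The genes that chose the members spanned a wide range among reticular cells. Fos, Jun and Egr1 together had a median of 0.695 and 1.44 UMIs per 10000 in the members of Mouse #1 and Mouse #2, against 126 and 101 in the highest quartile, with single cells reaching 871 and 743. The limits lay at 2.79 and 3.71 per 10000. Just inside stood members at 2.77 and 3.709, and just outside cells at 2.789 and 3.715, so the border cut a continuous range and marked no gap. None of the 3 genes had a UMI in 140 members of Mouse #1 (41.9%) and 176 of Mouse #2 (29.4%). Those cells were shallower, with medians of 7460.5 and 7256 UMIs against 14234 and 12285 in the other members.

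**Figure D1:**
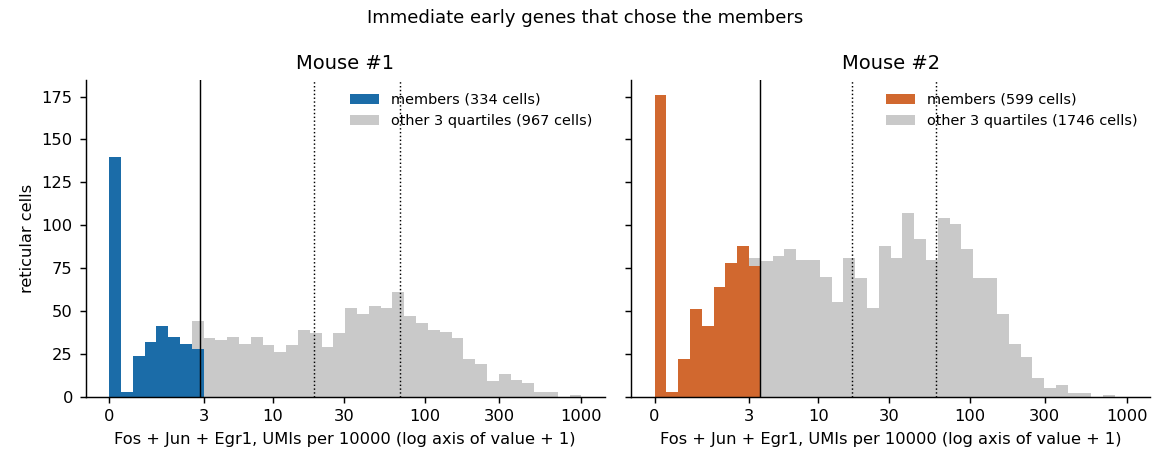
Number of reticular cells (vertical axis) by their Fos, Jun and Egr1 UMIs per 10000 (horizontal axis, log scale of the value plus 1) in each mouse, for cells with fewer than 2 UMIs of Cxcl9, with members in color and lines at the quartile limits. The lowest limit lies at 2.79 in Mouse #1 and 3.71 in Mouse #2, and the distribution runs on across it in both mice.

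Summed over cells and divided by the total UMIs of the sum to give CPM (with library sizes scaled by TMM), Fos stood at 17.1, 169, 1084 and 7088 CPM in Mouse #1 and 27, 168, 981 and 4598 CPM in Mouse #2 from the lowest to the highest quartile. Jun ran through 57.7, 515, 2336 and 6306 CPM in Mouse #1 and 93.5, 534, 1878 and 5445 CPM in Mouse #2. Egr1 ran through 16.9, 171, 929 and 2726 CPM in Mouse #1 and 31.8, 169, 685 and 2189.8 CPM in Mouse #2. These values chose the cells and were not tested. The members' levels lay below those of free RNA, read from barcodes of 1 to 100 UMIs, where Fos stood at 1146 and 1022 CPM, Jun at 1147 and 1218 CPM and Egr1 at 549 and 529 CPM. After each cell was thinned to 2000 UMIs, Fos was seen in 2.11% (1.02 to 4.29%) of members in Mouse #1 and 4.41% (3.02 to 6.38%) in Mouse #2, and in 97.5% and 97% of the highest quartile. Intervals in parentheses are 95% Wilson intervals, which cover counting error only. Thinning left out 2 and 9 shallower members.

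The members carried the markers of reticular cells. In thinned cells Cxcl12 was seen in 94.9% (92 to 96.8%) of members in Mouse #1 and 97.1% (95.4 to 98.2%) in Mouse #2, Kitl in 77.1% (72.3 to 81.3%) and 77.3% (73.7 to 80.5%), and Lepr in 69.9% (64.7 to 74.6%) and 79.5% (76 to 82.6%). As a background, the Ptprc-positive cells showed Cxcl12 in 11.7% and 19.6%, Kitl in 1.02% and 3.7%, and Lepr in 1.02% and 2.12%, at median depths before thinning of 10747 and 7785 UMIs. Every one of these shares in the members lay far above the background, whose cells were chosen to be low in Adipoq, Lpl and Hp. Adipoq and Lpl, used by the rule, were seen in 78.9% and 77.3% and in 94.3% and 95.1% of members. In the other quartiles Adipoq was seen in 73.9 to 80.9% of cells in Mouse #1 and 76 to 82.1% in Mouse #2. Lpl was seen there in 94.7 to 97.9% and 96.4 to 97%. Neither gene separated the members from other reticular cells.

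Of 6 marker genes given for these cells, Adipoq and Lpl served to choose all reticular cells and were not tested. The other 4 did not separate the members from other reticular cells either. Ccl2, a monocyte chemoattractant, stood at 295, 495, 565 and 331 CPM in Mouse #1 and 841, 1125, 858 and 699 CPM in Mouse #2 from the lowest to the highest quartile. Its level in the members was the lowest of the 4 in Mouse #1 and the third highest in Mouse #2. Tnfsf11, which encodes the osteoclast-inducing ligand RANKL, stood at 368, 493, 444 and 425 CPM in Mouse #1 and 629, 869, 667 and 582 CPM in Mouse #2. Again the second quartile was above the members in both mice. Vasn (vasorin, a membrane protein that binds TGF-beta) stood at 169, 266, 318 and 287 CPM in Mouse #1 and 319, 378, 217 and 178 CPM in Mouse #2, lowest in the members of Mouse #1 and second highest in those of Mouse #2. Ptx3 (the secreted pattern-recognition protein pentraxin 3) stood at 375, 404, 563 and 467 CPM in Mouse #1 and 519.9, 447, 454 and 532 CPM in Mouse #2, with the members of Mouse #1 at the bottom of its order.

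None of these 4 genes was called, by edgeR or DESeq2, between the members and the other 3 quartiles. Only Tnfsf11 had an unadjusted p under 0.05 in the quasi-likelihood test of edgeR (log2 fold change -0.22 ± 0.08 (SE), adjusted p = 0.234). Ccl2 gave -0.33 ± 0.17 (adjusted p = 0.419). Vasn gave -0.16 ± 0.42 (adjusted p = 0.901) and Ptx3 -0.10 ± 0.14 (adjusted p = 0.783). The data thus go against Ccl2, Tnfsf11, Vasn and Ptx3 as markers of the members among reticular cells, although each was present. In thinned members, Ccl2 was seen in 12.7% (9.5 to 16.7%) and 31% (27.4 to 34.9%), against 3.05% and 3.7% of Ptprc-positive cells. Tnfsf11 was seen in 38.9% and 49.5% of members, Vasn in 27.7% and 38.6%, and Ptx3 in 41% and 39%, against background shares of 1.52% and 3.17%, 1.02% and 1.59%, and 0.508% and 0.529%. The members are therefore called here by their rule, as reticular cells low in Fos, Jun and Egr1.

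**Figure D2:**
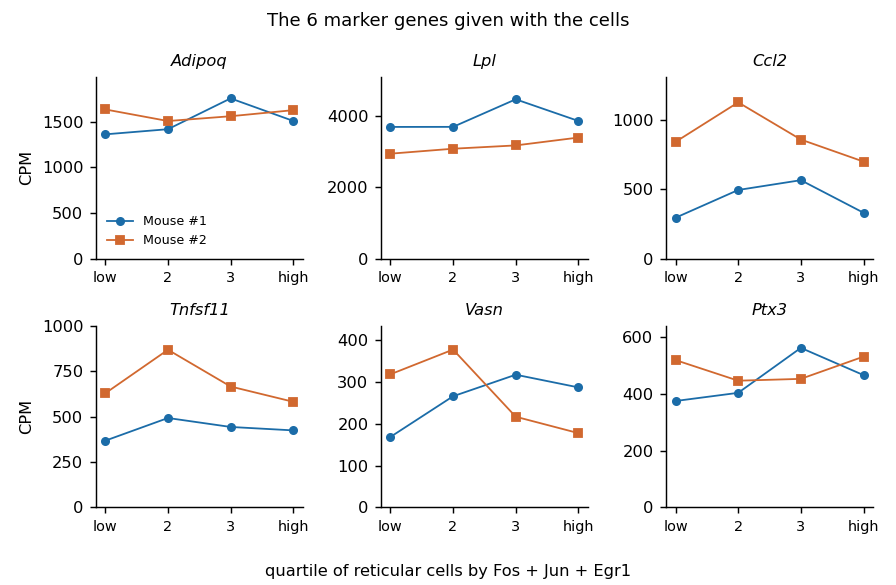
CPM of Adipoq, Lpl, Ccl2, Tnfsf11, Vasn and Ptx3 (vertical axes, linear) in the 4 quartiles of reticular cells (horizontal axes), with 1 line per mouse. Vasn runs upward from the members to the third quartile in Mouse #1 and is highest in the first 2 quartiles of Mouse #2, and Ccl2 is above the members in the second quartile of both mice.

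In the fits behind these tests, the counts of each quartile were summed per mouse, giving 8 sums, with the mouse as a block, and 12224 genes were tested with Benjamini-Hochberg adjustment. A call is an adjusted p under 0.05, and a log2 fold change is negative where the members were lower. The 4 sums of a mouse came from 1 library and the mice are 2, so the p-values measure only the spread between these sums. The 13 genes of the rule were left out. The remaining genes were measured in the very cells that Fos, Jun and Egr1 had sorted, so a gene that varies with these 3 from cell to cell was bound to shift. When a random share of each cell's UMIs chose the quartile and the rest was tested, 215 of 11156 genes were called, against 227 of 12224 in the main fit. The reticular class and the limit on Cxcl9 still came from all UMIs, and the split left that variation from cell to cell in place.

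Against the other 3 quartiles, 101 of the 12224 genes were higher in the members (0.826%) and 126 lower (1.03%). Against the highest quartile alone, 158 were higher (1.29%) and 250 lower (2.05%). These shares over all genes are the background for every count of list genes called below. Without the block for mouse, the first comparison called 26 genes higher and 51 lower, and the second 29 higher and 114 lower. Levels rose from each quartile to the next in both mice for 279 genes (2.28%) and fell at each step for 204 (1.67%).

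Some cells that met the rule carried many blood transcripts. A list of 28 blood marker genes reached at least 50 UMIs per 10000 in 22, 17, 6 and 5 cells from the lowest to the highest quartile of Mouse #1, and in 17, 15, 16 and 10 cells of Mouse #2. Such cells, and cells with under 10 UMIs of Adipoq and Lpl per 10000, were set apart. Among the members they were 28 cells in Mouse #1 (8.38%) and 34 in Mouse #2 (5.68%), against 5.48% and 4.3% of the other quartiles. Hp, one of the 3 genes that defined reticular cells, is also a gene of granulocytes. S100a8, a calcium-binding protein of neutrophils, stood at 54379.8 and 48256 CPM in the members set apart and at 89.8 and 55.8 CPM in those kept. It is one of the 28 genes that set these cells apart, so the gap follows in part from that choice.

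The 9 myeloid markers summed to 23993, 12627, 551 and 264 CPM over the quartiles of Mouse #1 and to 7757, 2284, 1850.0 and 389 CPM in Mouse #2, highest in the members in both. Without the cells set apart the sums were 232 to 259.8 CPM in Mouse #1 and 158 to 179 CPM in Mouse #2, with no quartile standing out. The myeloid and erythroid markers are among the 28 genes that set those cells apart. Removing the cells was thus bound to lower and level their sums. The 8 erythroid markers summed to 12856 and 6411 CPM in the members and to 542 and 537 CPM in the highest quartile, and to 343 and 354 against 424 and 366 CPM without the cells set apart. Among the erythroid genes, Tfrc (transferrin receptor) and Car2 (carbonic anhydrase 2) were called higher in the members. Of these Car2 alone was called in both fits, with a log2 fold change of 3.87 and of 2.69 (adjusted p = 0.0018) without the cells set apart. Of 7 myeloid markers tested 0 passed in edgeR, while 4 had an unadjusted p under 0.05 and 4 were called higher by DESeq2.

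**Figure D3:**
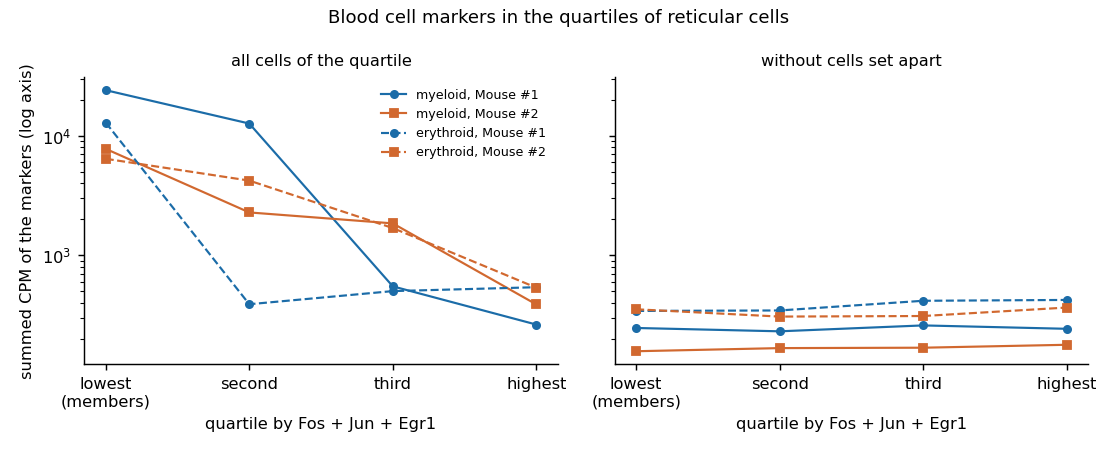
Summed CPM of the myeloid and erythroid markers (vertical axes, log scale) in the 4 quartiles of reticular cells, with all cells (left) and without the cells set apart (right). Solid lines are myeloid and dashed lines erythroid, 1 of each per mouse. With all cells the members lie highest in both mice, and without the cells set apart the lines are nearly level. The markers summed are among the genes that set the cells apart.

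Without the cells set apart, 41 of 11874 genes were higher in the members than in the other 3 quartiles (0.345%) and 121 were lower (1.02%), while against the highest quartile 98 were higher (0.825%) and 250 lower (2.11%). Of the 101 genes called higher with all cells, 18 were also called without these cells and 46 were no longer abundant enough to be tested. Of the 126 called lower, 106 were called again. Without these cells and without the block, 3 genes were higher and 51 lower. The 9 endothelial markers summed to 81.8 and 96.9 CPM against 73.8 to 112 CPM in the other quartiles. The 7 mural markers summed to 403 and 337 CPM against 187 to 299 CPM, highest in the members of each mouse also without the cells set apart (334 and 350.2 CPM). By test 0 of the 10 tested genes of these lists was called by edgeR, with an unadjusted p under 0.05 for 6 and 1 mural gene called higher by DESeq2.

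Of the 16 tested lymphoid, megakaryocyte, periosteal fibroblast and chondrocyte markers 0 were called by either tool, and 3 had an unadjusted p under 0.05. In the members the 6 lymphoid markers summed to 28.4 and 16.9 CPM, and the 5 of megakaryocytes to 6.07 and 5.81 CPM. The 5 chondrocyte markers summed to 14.3, 41, 71.6 and 114 CPM from the lowest to the highest quartile of Mouse #1 and to 21.4, 33.6, 21.9 and 36.6 CPM in Mouse #2, lowest in the members of both. The 7 periosteal markers summed to 18.9, 55.9, 91.9 and 39.3 CPM in Mouse #1 and to 56, 106, 58 and 36.8 CPM in Mouse #2, lowest in the members of Mouse #1 only. In the members of at least 1 mouse the periosteal marker Dpp4, the cartilage proteoglycan gene Acan, the lymphocyte genes Cd3e and Ms4a1 and the platelet gene Ppbp had no count. The part that cells of other types play in the calls below was not tested beyond the fits without the cells set apart.

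Immediate early genes outside the rule were lower in the members. Of 42 tested, 13 were called lower and 0 higher than in the other 3 quartiles (17 and 0 against the highest quartile), with a median log2 fold change of -1.30 beside 0.00 over all genes tested. In 39 of 42 the members were below the other quartiles in both mice, and 23 rose at each step from the lowest to the highest quartile in both. Without the block 14 were called, without the cells set apart 12, and by DESeq2 27. The 13 were Egr2, Ier2, Ier3, Dusp6, Btg2, Klf2, Klf6, Cyr61, Ctgf, Rhob, Gadd45g, Per1 and Gem. Promoter stretches are shown first for a called gene of this list and for a pair of genes described further on, since each holds a motif that early factors are known to bind. They come from RefSeq on GRCm38.p6, read 5′ to 3′ along the gene, with the motif in capitals. The Btg2 stretch (88 bases, minus strand, chr1:134079274-134079361) and the Plk2 stretch (88 bases, plus strand, chr13:110394942-110395029) each hold a cyclic AMP response element (CRE, TGACGTCA). The Srxn1 stretch (85 bases, plus strand, chr2:152105439-152105523) holds the AP-1 letters TGANTCA.
Btg2: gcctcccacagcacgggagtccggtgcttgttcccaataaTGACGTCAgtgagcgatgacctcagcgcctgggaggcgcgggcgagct
Plk2: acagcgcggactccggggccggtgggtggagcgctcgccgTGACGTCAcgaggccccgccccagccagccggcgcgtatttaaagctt
Srxn1: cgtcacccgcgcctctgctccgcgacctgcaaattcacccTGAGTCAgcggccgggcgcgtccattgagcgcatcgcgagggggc

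The motifs were searched on both strands from 250 bases before to 50 after the gene start. The CRE stood in 1.88% of 27025 promoters, in 1 of the 9 immediate early genes called lower that had a window (Btg2) and in none of 5 heat shock genes called lower. AP-1, whose letters do not overlap those of the CRE, stood in 7.93% of all promoters and in 0 of the same 9. The CArG box of serum response factor stood in 1.57% of all and in 0 of the 9, and the NF-kB motif stood in 50.4% of all. The last was frequent in every group looked at, in 8 of the 9, in 4 of 5 heat shock genes called lower, and in 5 of 6 and 7 of 7 of the genes with the largest fall and rise described further on. These are matches of letters, not binding sites.

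Cyr61 (CCN1), a secreted matrix protein that binds integrins, was the most clearly graded of the 13. It ran through 244, 962, 2310.3 and 3609 CPM in Mouse #1 and 242, 759, 1963 and 3444 CPM in Mouse #2 from the lowest to the highest quartile (log2 fold change -2.94 ± 0.09 (SE), adjusted p = 1.12e-06). The levels rose at each step in both mice, and the ranges of the mice nearly coincided. Btg2, an antiproliferative gene at chr1:134075170-134079120, ran through 118, 395, 835 and 1104 CPM in Mouse #1 and 133, 335, 589.5 and 1099 CPM in Mouse #2 (log2 fold change -2.38 ± 0.14 (SE), adjusted p = 0.000502). Egr2, a zinc-finger relative of Egr1 on chr10:67535475-67542188, stood at 1.08 and 1.94 CPM in the members against 74.7 and 44.7 CPM in the highest quartile (log2 fold change -3.76 ± 0.35 (SE), adjusted p = 0.0033; adjusted p = 0.0898 without the block). All 3 genes were lowest in the members of each mouse.

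Klf6 and Klf2, Kruppel-like factors, followed the same order. Klf6 stood at 252 and 317 CPM in the members against 1843 and 1442 CPM in the highest quartile (log2 fold change -1.69 ± 0.19 (SE), adjusted p = 0.0216), and Klf2 at 313 and 488 CPM in the members against 2313 and 2228 CPM in the highest quartile (log2 fold change -1.64 ± 0.15 (SE), adjusted p = 0.00572). Ier2, an early nuclear protein, stood at 49 and 75.1 CPM in the members against 549 and 442 CPM in the highest quartile (log2 fold change -1.83 ± 0.23 (SE), adjusted p = 0.033), and its call was not made without the cells set apart (adjusted p = 0.124). Ier3, a regulator of cell survival, stood at 54.9 and 78.9 CPM in the members against 386 and 251 CPM in the highest quartile (log2 fold change -1.68 ± 0.24 (SE), adjusted p = 0.0495). Of the rest, the growth-arrest gene Gadd45g (-1.39), the small GTPase genes Rhob (-1.27) and Gem (-1.51), the ERK phosphatase gene Dusp6 (-1.43), the clock gene Per1 (-0.92) and Ctgf (-0.73), a relative of Cyr61, had adjusted p values from 0.000182 to 0.0489. Ctgf was called neither without the block (adjusted p = 0.0673) nor without the cells set apart (0.137).

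Several close relatives of the rule genes did not pass. Fosb stood at 296 and 598 CPM in the members against 2729 and 1565 CPM in the highest quartile (log2 fold change -1.71 ± 0.52 (SE), adjusted p = 0.278). Junb stood at 346 and 618 CPM in the members against 2964 and 2317 CPM in the highest quartile (log2 fold change -1.48 ± 0.33 (SE), adjusted p = 0.18), and Atf3, a stress-induced factor of the same family, at 20.2 and 39.8 CPM in the members against 667 and 487 CPM in the highest quartile (log2 fold change -2.97 ± 0.47 (SE), adjusted p = 0.104). In each the members were lowest in both mice, but the mice differed in how far. Fosb was seen in 27.4% (22.9 to 32.4%) of thinned members in Mouse #1 and 49% (45 to 53%) in Mouse #2, against 13.7% and 11.1% of Ptprc-positive cells. Junb was seen in 30.1% and 40.5% of thinned members against 35.5% and 31.2% of Ptprc-positive cells, so that its share in Mouse #1 was no higher than in those cells. Whether those cells give a floor for Junb was not tested.

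Heat shock genes were lower in the members too. Of 25 heat shock proteins and co-chaperones tested, 9 were called lower and 0 higher than in the other 3 quartiles, with a median log2 fold change of -0.71 beside 0.00 over all genes. Against the highest quartile 13 were lower, and without the block 4 were called lower against the other 3 quartiles (Hspa1b, Hsp90aa1, Hspa8 and Dnaja1). Hspa1a, an inducible HSP70 at chr17:34969190-34972156, ran through 8.89, 25.3, 169 and 450.0 CPM in Mouse #1 and 20.3, 59.1, 315 and 1172 CPM in Mouse #2 (log2 fold change -3.79 ± 0.13 (SE), adjusted p = 1.47e-06). It was lowest in the members and rose at each step, but the highest quartile of Mouse #2 stood above that of Mouse #1, and without the block for mouse its adjusted p was 0.177. Hspa1b, a near-identical neighbor whose reads may be split with it, stood at 12.6 and 20.9 CPM in the members against 579 and 1047 CPM in the highest quartile (log2 fold change -3.59 ± 0.11 (SE), adjusted p = 1.12e-06; adjusted p = 0.0281 without the block).

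The small heat shock protein gene Hspb1 stood at 21.5 and 29.7 CPM in the members against 256 and 515 CPM in the highest quartile (log2 fold change -2.15 ± 0.17 (SE), adjusted p = 0.00209, and adjusted p = 0.135 without the block). Hsp90aa1, an inducible HSP90, stood at 296 and 329 CPM in the members against 1392 and 2128 CPM in the highest quartile (log2 fold change -1.43 ± 0.16 (SE), adjusted p = 0.0123). Constitutive chaperones moved less. Hspa8 had a log2 fold change of -0.82 and Hsp90ab1 of -0.52, and the co-chaperone Dnaja1 of -1.04. Hsph1 (-2.08) and the low Cryab (-1.59) made up the 9, and neither was called without the cells set apart (adjusted p = 0.0521 and 0.0997). In the unfolded protein response, 2 of 16 genes were called lower, Ddit3 (-0.80), a factor of endoplasmic reticulum stress, and Herpud1 (-0.57), with neither called without the block (adjusted p = 0.175 and 0.187). The median of that list was -0.02.

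**Figure D4:**
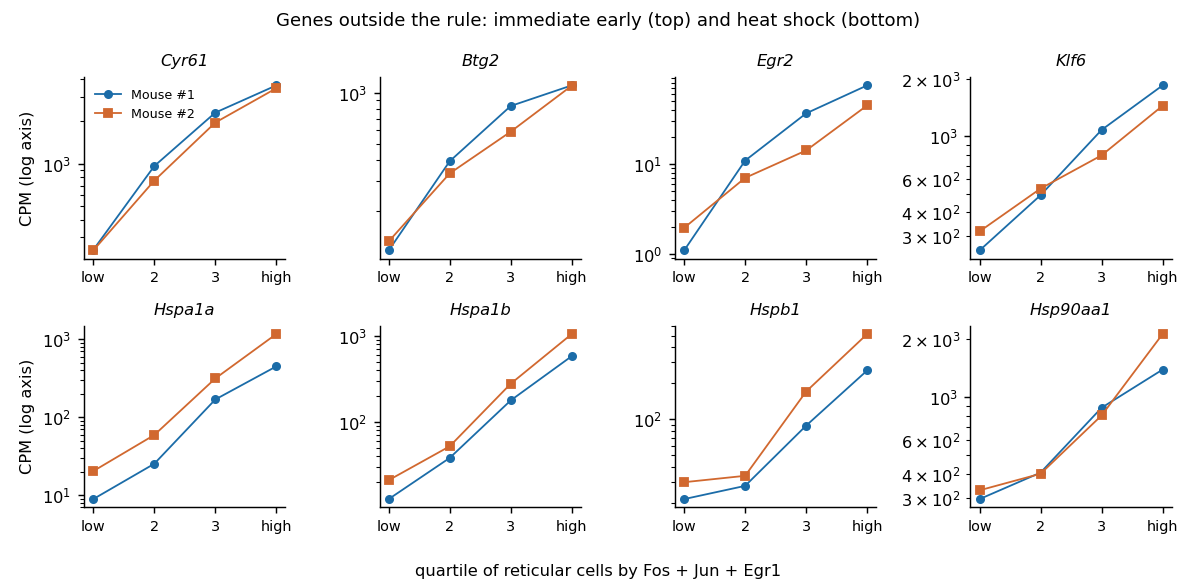
CPM (vertical axes, log scale) of 4 immediate early genes outside the rule (top) and 4 heat shock genes (bottom) in the 4 quartiles of reticular cells, 1 line per mouse. All 8 are lowest in the members of both mice, and Hspa1a rises to 450 CPM in Mouse #1 and 1172 CPM in Mouse #2.

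Beyond the lists, the 12 genes with the largest fall in the members were Gm17056, Phlda1, Gm26825, Spry4, Rgs4, Gm26532, Hes1, Plk2, Rasl11a, Slc25a25, Amotl2 and Spry2. All 12 were called against the highest quartile as well, 11 without the cells set apart (not Rgs4) and 11 without the block (not Plk2). Hes1, a transcriptional repressor downstream of Notch, ran through 123, 249, 342 and 653 CPM in Mouse #1 and 139, 183, 315 and 657 CPM in Mouse #2 (log2 fold change -1.45 ± 0.12 (SE), adjusted p = 0.000938). Phlda1, an early-response gene, stood at 59 and 94.6 CPM in the members against 563 and 581 CPM in the highest quartile (log2 fold change -2.11 ± 0.20 (SE), adjusted p = 0.0101). Spry4 and Spry2, feedback inhibitors of receptor tyrosine kinase signaling, had log2 fold changes of -1.71 and -1.07. The polo-like kinase gene Plk2, whose promoter stretch is printed above, stood at 17.4 and 12.7 CPM in the members against 83.4 and 50.1 CPM in the highest quartile (log2 fold change -1.38 ± 0.18 (SE), adjusted p = 0.00847; adjusted p = 0.0541 without the block).

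Among the others, Amotl2, which encodes a junctional protein of the Hippo pathway, stood at 96.7 and 128 CPM in the members against 369 and 395 CPM in the highest quartile (log2 fold change -1.18 ± 0.08 (SE), adjusted p = 0.000293). Rasl11a stood at 47.7 and 53.9 CPM in the members against 298 and 293 CPM in the highest quartile, and the mitochondrial carrier gene Slc25a25 at 16.3 and 15.3 CPM in the members against 66.2 and 47.3 CPM in the highest quartile. Rgs4, a regulator of G protein signaling, stood at 33.4 and 30.1 CPM in the members against 112 and 179.6 CPM in the highest quartile (adjusted p = 0.0473, and 0.126 without the cells set apart). The unnamed Gm17056 was at 6 and 26 UMIs in all members together, against 86.6 and 71.4 CPM in the highest quartile. In all 12 genes the members lay below the mean of the other quartiles in both mice, as the choice of these genes required.

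Among the genes with the largest rise were Ltf, Cd24a, Cybb, Fam132a, Srxn1, Slc20a2, Mcm7, Gpx1, Hey1, Sdc3 and Snai1. Of these 5 were called without the cells set apart (Srxn1, Slc20a2, Hey1, Sdc3 and Snai1), and of those named Srxn1 and Cd24a without the block. Ltf (lactoferrin, of neutrophil granules) stood at 206 and 131 CPM in the members against 2.74 and 2.06 CPM in the highest quartile, and Cybb, the oxidase subunit of phagocytes, at 72.2 and 22.1 CPM in the members against 9.46 and 6.03 CPM in the highest quartile. Both turned to the opposite sign without the cells set apart (log2 fold changes -0.42 and -0.67). Cd24a, Mcm7 (a replication helicase subunit), Gpx1 (glutathione peroxidase) and Fam132a were likewise not called without them, with adjusted p from 0.144 to 0.823.

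Srxn1 (sulfiredoxin, which restores oxidized peroxiredoxins) was the only one of those named that was called in all 3 of these fits. It ran through 38, 46.5, 16.6 and 16.7 CPM in Mouse #1 and 51, 45.9, 22.4 and 16 CPM in Mouse #2 (log2 fold change 0.86 ± 0.12 (SE), adjusted p = 0.0101; 0.92 without the cells set apart). When the lowest 10% of reticular cells were set against the rest instead, its log2 fold change turned to -0.58 and that of Hey1 to -0.012. Its promoter stretch, shown above, holds an AP-1 match, as did that of Cybb among the 7 genes of this kind with a window. Sdc3, a cell-surface heparan sulfate proteoglycan, stood at 117 and 81.9 CPM in the members against 49.8 and 37.6 CPM in the highest quartile (log2 fold change 0.72 ± 0.10 (SE), adjusted p = 0.00962). Hey1, a Notch-responsive repressor of the same family as Hes1, stood at 43.2 and 39.8 CPM in the members against 29.4 and 19.4 CPM in the highest quartile (log2 fold change 0.73 ± 0.12 (SE), adjusted p = 0.0227). Hey1 was thus higher in the members and Hes1 lower. Snai1, a repressor of epithelial genes, stood at 48.4 and 87.7 CPM in the members against 33.1 and 39.5 CPM in the highest quartile (log2 fold change 0.72 ± 0.13 (SE), adjusted p = 0.0434), and the phosphate transporter gene Slc20a2 at 49.7 and 56.8 CPM in the members against 23.1 and 36 CPM in the highest quartile (log2 fold change 0.78 ± 0.15 (SE), adjusted p = 0.0495). Sdc3, Hey1, Snai1 and Slc20a2 were not called without the block (adjusted p = 0.194 to 0.417).

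**Figure D5:**
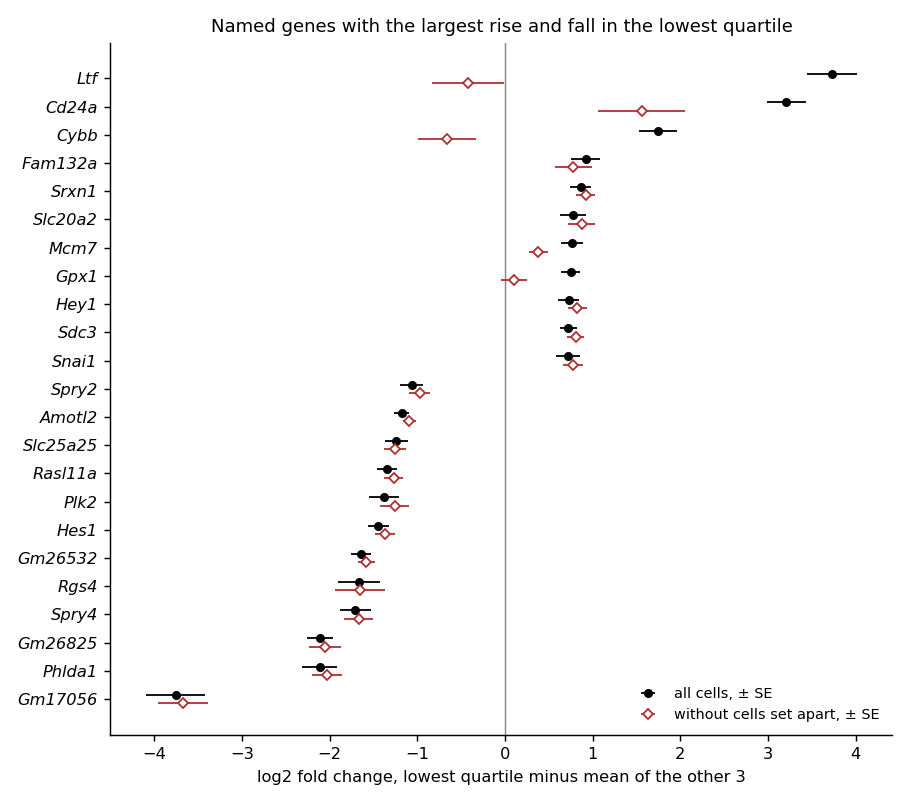
Log2 fold change of the members against the mean of the other 3 quartiles (horizontal axis) for the genes named with the largest rise and the 12 with the largest fall, with bars of 1 SE, for all cells (filled) and without the cells set apart (open). The genes that fell stand at nearly the same values in both, while Ltf and Cybb cross to below 0 and Cd24a drops from 3.21 to 1.56.

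Reticular genes lay slightly lower in the members. Of 10 reticular markers outside the rule, 2 were called lower and 0 higher (3 and 0 by DESeq2), with a median of -0.20. Over all genes tested, 1.03% were lower and 0.826% higher. Of the 10, 8 were below the other quartiles in both mice and 7 had an unadjusted p under 0.05, while 0 were called without the block. Without the cells set apart the difference was smaller, with 1 called lower, 6 below in both mice and a median of -0.12. Esm1 (endocan, a secreted proteoglycan) stood at 749.6 and 858 CPM in the members against 1283 and 1331 CPM in the highest quartile (log2 fold change -0.45 ± 0.07 (SE), adjusted p = 0.0187; adjusted p = 0.151 without the block). Ebf3, a transcription factor that maintains marrow reticular cells, stood at 302 and 304 CPM in the members against 429.6 and 449.7 CPM in the highest quartile (log2 fold change -0.36 ± 0.07 (SE), adjusted p = 0.0405; 0.102 without the cells set apart and 0.136 without the block). The Cxcl12 transcript, at 7009 and 7668 CPM in the members against 8303 and 9027 CPM in the highest quartile, did not pass (log2 fold change -0.17 ± 0.05 (SE), adjusted p = 0.18), nor did Kitl (-0.26, adjusted p = 0.0786) and Lepr (-0.23, adjusted p = 0.223). Of 9 tested preosteoblast and osteoblast markers 0 were called by edgeR or DESeq2, and 2 had an unadjusted p under 0.05. Without the cells set apart edgeR called 1 of them higher, the osteoblast factor gene Sp7 (log2 fold change 0.88, adjusted p = 0.0286).

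Calls among secreted factors and their pathways stand beside 1.03% lower and 0.826% higher over all genes tested. Of 35 chemokines and cytokines of marrow stroma, 1 was lower and 0 higher. It was Ccl7, a monocyte chemoattractant next of kin to Ccl2, at 57.7 and 125 CPM in the members against 178 and 249 CPM in the highest quartile (log2 fold change -1.10 ± 0.13 (SE), adjusted p = 0.00572; adjusted p = 0.348 without the block). Against the highest quartile 4 of the 35 were lower, with the lymphocyte growth factors Il7 (-0.41) and Il15 (-0.92) and the bone morphogenetic protein Bmp4 (-0.94) beside Ccl7. None of the 4 was called without the block (adjusted p = 0.068 to 0.288), and Il7 and Bmp4 were not called without the cells set apart (adjusted p = 0.114 and 0.119). Of 9 osteoclast regulators 0 were called by edgeR or DESeq2, with 3 at an unadjusted p under 0.05. Of 31 genes of the TGF-beta and BMP pathway, 3 were lower and 1 higher, with a median of -0.27, a larger share than over all genes. Against the highest quartile 7 of the 31 were lower and 1 higher, beside 2.05% and 1.29% over all genes. The BMP antagonist Grem1 stood at 195 and 283 CPM in the members against 547 and 679 CPM in the highest quartile (log2 fold change -1.02 ± 0.09 (SE), adjusted p = 0.00112), and Id3, a target of BMP signaling, at 689 and 470.0 CPM in the members against 1779 and 1293 CPM in the highest quartile (log2 fold change -0.92 ± 0.09 (SE), adjusted p = 0.00121).

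The inhibitory Smad gene Smad7 had a log2 fold change of -0.68 (adjusted p = 0.0119). The ligand gene Tgfb1 was higher, at 77.2 and 76.5 CPM in the members against 44.3 and 29.99 CPM in the highest quartile (log2 fold change 0.72 ± 0.10 (SE), adjusted p = 0.0101), but not without the cells set apart (adjusted p = 0.121). None of these 4 was called without the block, with adjusted p from 0.0931 to 0.336. Of 31 genes of the NF-kB response and acute phase, 2 were lower, the interferon regulatory factor gene Irf1 at 106 and 192 CPM in the members against 621 and 677 CPM in the highest quartile (log2 fold change -1.58 ± 0.17 (SE), adjusted p = 0.012) and Tnfaip3, the NF-kB inhibitor A20, at 17.6 and 32.2 CPM in the members against 61.7 and 73.4 CPM in the highest quartile (log2 fold change -1.36 ± 0.21 (SE), adjusted p = 0.0434). Neither was called without the block (adjusted p = 0.0842 and 0.105). The 1 called higher was the neutrophil and stromal gene Lcn2, whose sign turned without the cells set apart (3.75 to -0.32). Irf1 was also the 1 call, lower, among 28 interferon response genes.

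Of 29 adipocyte lineage genes, the fatty acid binding protein Fabp5 was higher (1.15, adjusted p = 0.0461, and 0.338 without the block) and Ebf3 lower. Of 27 transcription factors of niche and bone, 3 were lower, Ebf3, Shox2 (-0.47) and Hoxa10 (-0.41), and the median was -0.21, with none of the 3 called without the block. Sp7, also on this list, was not called with all cells (0.72, adjusted p = 0.0727) or without the block (0.347). Of 47 genes of matrix and adhesion, the protease inhibitor Timp3 was lower (-0.51, adjusted p = 0.0461, and 0.885 without the block). Of 14 genes of the glucocorticoid response and metallothioneins, 1 was lower, the clock gene Per1 named above. Over all genes tested, 1.03% were lower and 0.826% higher. A single call in a list of this length was thus not read as a trait of the list.

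In edgeR 0 genes were called among 17 cell cycle genes, 83 ribosomal proteins, 88 respiratory chain subunits and 13 genes of RNA quality. An unadjusted p under 0.05 was reached by 7, 4, 7 and 8 of them, and DESeq2 called 4 cell cycle genes higher and 0 of the other 3 lists. The proliferation marker Mki67 stood at 77 and 34.7 CPM in the members against 1.24 and 1.91 CPM in the highest quartile (log2 fold change 2.78 ± 0.53 (SE), adjusted p = 0.134), and the cell cycle median was 2.06 with all cells and 1.41 without the cells set apart. Without the cells set apart, the 17 cell cycle genes summed to 434, 378, 210 and 205 CPM from the lowest to the highest quartile of Mouse #1. In Mouse #2 they summed to 274, 206, 302 and 166 CPM, with the third quartile above the members. The medians of the ribosomal and respiratory lists were 0.04 and 0.08. Malat1, a nuclear long RNA, stood at 38743 and 45559 CPM in the members against 60114 and 56400.1 CPM in the highest quartile (log2 fold change -0.35 ± 0.08 (SE), adjusted p = 0.134, and 0.0386 without the cells set apart). Mt1, a metallothionein, ran opposite ways, at 274, 468, 645 and 799 CPM in Mouse #1 and 746, 801, 442 and 327 CPM in Mouse #2.

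The share of tdTomato-positive cells was lowest in the members of Mouse #1, and in Mouse #2 the members and the second quartile were level. A positive cell had more tdTomato per 10000 UMIs than 99% of the Ptprc-positive cells of its mouse (3.88 and 4.57). Positive members were 29% (97 of 334 cells, 95% Wilson interval 24.4 to 34.1%) in Mouse #1 and 43.7% (262 of 599 cells, 95% Wilson interval 39.8 to 47.7%) in Mouse #2, a mean of 36.4% ± 10.4 (SD, n = 2 mice). The second, the third and the highest quartiles held 35.9%, 46.7% and 37.9% in Mouse #1 and 44%, 51.9% and 47.8% in Mouse #2. In both mice the third quartile had the highest share, and the interval of the members overlapped that of the second quartile. Without the cells set apart the members stood at 30.4% against 37.9% to 47.1% in the other quartiles of Mouse #1, and at 45.3% against 45.1% to 52.4% in those of Mouse #2. With 2 mice no test of these shares was made.

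As summed counts, tdTomato did not pass (459.6 and 918 CPM in the members against 772 and 1101 CPM in the highest quartile; log2 fold change -0.53 ± 0.15 (SE), adjusted p = 0.176). The eGFP feature, which reports the Cxcl12 locus, was slightly lower, at 9638 and 10249 CPM in the members against 12065 and 12224 CPM in the highest quartile (log2 fold change -0.22 ± 0.04 (SE), adjusted p = 0.0495), and was not called without the cells set apart (adjusted p = 0.257) or without the block (0.248). Reporter features share stretches with other added sequences, tdTomato with a creER feature and eGFP with EYFP, so their UMIs are uncertain by an unknown amount.

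The members varied among themselves mostly in blood transcripts. Ranked by variance over mean of counts thinned to 2000 UMIs, the leading genes were the globins Hbb-bs (ratio 491 in Mouse #1 and 388 in Mouse #2) and Hba-a1 and the granulocyte genes S100a9, S100a8, Camp and Ngp, with Lcn2, Chil3, Lyz2 and Ltf further down. In the 871 members kept after the cells set apart were left out, the order was led by Gm42418, which overlaps ribosomal RNA and is uncertain, and Malat1, followed by Mgp, a matrix inhibitor of calcification (ratios 13.9 and 28), and the collagens Col1a1 (12.3 and 16.7) and Col3a1. Ccl2 came seventh, at ratios of 7.96 and 13.7 and means of 0.572 and 1.9 UMIs per thinned cell. Igfbp5, a secreted binding protein of insulin-like growth factors, Gsn (gelsolin), Dcn (decorin), Tmsb4x, Fth1, eGFP and 3 mitochondrial genes filled the first 15. A ratio of 1 is what counting alone would give, and the median over the 3053 genes ranked was 1.04.

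The kept members of both mice were alike over most genes. Over 6005 genes at 20 CPM or more, log2 levels correlated at a Pearson's r of 0.984 between the mice, a description across genes, which are not independent, of libraries that differ in depth. Levels lay within 2-fold for 99.6% of the genes. The farthest apart was H19, an imprinted growth-regulating RNA, at 23.2 CPM in Mouse #1 and 119 CPM in Mouse #2. The cell cycle inhibitor gene Cdkn1a stood at 194 and 605 CPM, Mt1 at 282 and 794 CPM, and Ccl2 at 371 and 915 CPM. More than 2-fold higher in Mouse #2 were 20 genes, and in Mouse #1 4 genes. With 1 library each, mouse and library cannot be told apart.

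The members differed from cells that the same scores placed in the osteoblast lineage. Those were 347 and 797 cells with more Alpl, Wif1, Kcnk2 and Spp1 than reticular genes. Genes outside that rule were at lower levels in the kept members, with Limch1 at 256 and 186 CPM against 785 and 672 CPM. The collagenase gene Mmp13 stood at 1073 and 762 CPM against 2708 and 1562 CPM, and Col1a1, the main bone collagen gene, at 1094 and 1833 CPM against 9024 and 19612 CPM. Ibsp (bone sialoprotein) stood at 726 and 1441 CPM against 2436 and 1492 CPM, nearly alike in Mouse #2. These values were not tested, since the scores of the rule separate the same cells.

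The limit on Cxcl9, an interferon-induced chemokine, kept 48 cells of Mouse #1 (12.6% of the lowest quartile) and 116 of Mouse #2 (16.2%) out of the members. The other quartiles held such cells at 15.5% and 18.6%. With all of them kept in, 79 genes were higher and 142 lower in the lowest quartile.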

How the data were processed

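The authors deposited raw UMI counts per feature and barcode for 2 libraries, with no filter for cells, made with Cell Ranger 3.0.0 per the file headers on mm10. The annotation release is not given in the sources used here. Cells were barcodes of 1000 or more genes in which mitochondrial UMIs made up no more than 15%, and reticular cells and members were chosen by the rule in the report. The members and gene lists were chosen with earlier results of these data known.

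Counts were summed per mouse and quartile and fitted with the quasi-likelihood test of edgeR 4.0.16 (R 4.3.3), with TMM scaling, filterByExpr and Benjamini-Hochberg adjustment. Levels of members kept or set apart, of other cell classes and of free RNA are CPM without TMM. The scripts were tested on simulated data. The pairing comes from the animals, and deviations of 1 mouse correlated between quartiles at -0.0592 to 0.597 over 12236 genes. Named genes were the 12 highest and 12 lowest log2 fold changes among called genes of at least 20 CPM outside the rule and the lists, with the same sign in both mice, and up to 6 members of each list, called ones first. Some further called list members were named after their values were seen. Some results are not reported here. Gene positions are from GENCODE on GRCm38. Doublets were kept, and removing the highest Scrublet scores (scanpy 1.11.5; 60 and 168 cells) was an alternative. The 28 blood marker genes, and the fits without blood-marker cells or with the Cxcl9 cells, were chosen after seeing the data. Other alternatives changed the cell filter, limits, UMI depth, scaling, low-count filter, block or tool (DESeq2 1.42.0).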

Additional observations from a re-analysis of the deposited data

How the results depend on the processing

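Of the 166 tested genes named, 57 were called, and over the 18 alternatives many calls were lost. With no replicate block 33 of the 57 lost their call, and with neither the block nor the blood-marker cells 32, with 3 more reversed. At the lowest 10% 33 lost it, with 2 more reversed, and at the lowest 50% 32. Without the blood-marker cells 15 lost it, with 3 more reversed. The other alternatives with a test lost 1 to 12. The count of genes called against the other 3 quartiles fell from 227 to 77 with no replicate block, 54 with neither the block nor the blood-marker cells, 86 when the members were the lowest 10% and 52 when they were the lowest 50%. It rose to 425 with no filter on low counts, where 18584 genes were tested, and to 369 (225 higher, 144 lower) when the reticular cells outside the members were summed as 1 class. The cause was not tested for the block and the percentiles. Against the highest quartile, 408 calls became 143 with no replicate block and 121 with neither. All other alternatives, DESeq2 included (280 and 464), stayed within 1.5 times. DESeq2 size factors gave 226 and 412.

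Without the blood-marker cells, the log2 fold changes of Cybb, Lcn2 and Ltf reversed to -0.67, -0.32 and -0.42, and with no block as well to -0.61, -0.29 and -0.47. With the lowest 10%, Hey1 stood at -0.012 and Srxn1 at -0.58. The members numbered 828 to 1097 under the other cell filters, the Cxcl9 and Scrublet alternatives and without the blood-marker cells. By construction they were 140 and 249 at the lowest 10%, 657 and 1188 at the lowest 50%, and 248 and 520 when matched on UMIs. Leaving out each mouse in turn moved the tdTomato-positive share between 29.0% and 43.7%, and left all 57 called genes with their direction, with no test. For the 12 highest and 12 lowest this was fixed in advance, since the same sign in both mice was required of them. The members with 0 UMIs of Fos, Jun and Egr1 were the shallower ones, so depth limits what a 0 shows there.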
